A study of Mus musculus with 24 samples.

Results

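The genes described here are 9 genes of the Paneth cell and its secretory granules, chosen by name: the α-defensin genes Defa21, Defa22, Defa24 and Defa17, and Lyz1, Ang4, Mmp7, Itln1 and Pla2g2a. Of the 9, 8 had a row among the 21441 genes of each table of expression values. Defa24 had no row of its own and was not analysed here. Pla2g2a lay under the filter for expressed genes in every region, so 7 of the 9 genes entered the tests.

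Paneth cells sit at the base of the crypts of the small intestine and release antimicrobial proteins from large granules into the crypt lumen. Mouse α-defensins (cryptdins) are made as inactive precursors that the metalloproteinase matrilysin, encoded by Mmp7, cuts into active peptides. Lysozyme, angiogenin 4 and intelectin are secreted beside them, and in mice the vitamin D receptor has been linked to Paneth cell function.

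Libraries were made from polyadenylated RNA of 3 regions of the gut, duodenum, ileum and colon, of C57BL6J mice of wild type genotype. The labels' protocol speaks of tissue as well as isolated villus and crypt epithelium, and does not say which was used for these samples. Mice of the 3xD groups received calcitriol (1,25D3, the active vitamin D hormone) in 3 injections of 1 ng per g body weight, given 48, 24 and 6 h before the end. Mice of the minusD groups were vitamin D-deficient, and their labels give no treatment. Ages run over 10 to 14 in the labels, with no unit, and there were 2 females of 4 in each 3xD group and 1 of 4 in each minusD group. Neither can be given per library, because no column of the tables is tied to a replicate of the labels. The values used here cover 23 libraries: 4 of 3xD and 4 of minusD for duodenum, 4 and 3 for ileum, 4 and 4 for colon. The labels do not say that replicates came from separate cages or litters, so p-values measure the spread between these libraries.

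Libraries are named as the columns are. The 3xD libraries are 3xD 1, 3xD5711, 3xD5720 and 3xD5734, and the minusD libraries are Vehicle 1, Vehicle 2, Vehicle 3 and minusD5718, which the ileum lacks. Names with a serial number and names with 4 digits nearly coincide with treatment, and they coincide with depth. Depth, as whole reads recovered from the FPKM values, was 19348637 to 31173512 in serial and 13597611 to 15163542 in 4-digit libraries of the duodenum. For the ileum these ranges were 19645936 to 32847061 and 13972818 to 16107282, and for the colon 26260699 to 27440440 and 14290201 to 16573383. The regions matched their labels: Fabp6, the ileal bile acid-binding protein gene, stood at 1985 to 10714 FPKM in the ileum, at 0.926 to 280.9 FPKM in the duodenum and at 28.4 to 265.8 FPKM in the colon. In the ileum, 3xD5720 stood apart, with 1985 FPKM of Fabp6 against 5462 to 10714 FPKM in the other libraries. Slc10a2, another listed ileum marker, was highest in 3xD5720, at 397.4 FPKM against 122.7 to 276.1 FPKM. The 11 listed colonocyte genes with a row summed to 3464 FPKM in 3xD5720, against 308.9 to 975.9 FPKM in the other ileal libraries. Among them Car1 was not highest there, at 6.66 FPKM against 0.522 to 34.7 FPKM. The 12 listed enterocyte genes summed to 14126 FPKM, against 24028 to 35236 FPKM. In the duodenum, the gastric gene Gkn1 stood at 321.5 to 560.02 FPKM in the 4-digit libraries and at 0 to 0.0282 FPKM in the serial ones. Cyp24a1, the catabolic target gene of the hormone, lay at 64.9 to 640.5 FPKM in 3xD libraries and at 0.00846 to 0.418 FPKM in minusD libraries of the duodenum. In the ileum it lay at 5.34 to 543.1 FPKM in 3xD and at 0.0157 to 0.153 FPKM in minusD libraries. For the colon these ranges were 2.67 to 369.7 and 0.0107 to 0.0814 FPKM.

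Defa21, Defa22, Defa24 and Defa17 lie within one cluster on mouse chromosome 8 (NCBIM37 assembly, plus strand). Defa21 spans 22165224 to 22166195, Defa22 22301956 to 22302928, Defa17 22766252 to 22767207 and Defa24 22844966 to 22845943. Their coding sequences, all of 282 bases with the stop codon, are shown because their likeness bears on how reads can be divided between the genes. They are those of the gencode vM1 transcripts, and capitals mark the bases that differ from Defa21.
Defa21: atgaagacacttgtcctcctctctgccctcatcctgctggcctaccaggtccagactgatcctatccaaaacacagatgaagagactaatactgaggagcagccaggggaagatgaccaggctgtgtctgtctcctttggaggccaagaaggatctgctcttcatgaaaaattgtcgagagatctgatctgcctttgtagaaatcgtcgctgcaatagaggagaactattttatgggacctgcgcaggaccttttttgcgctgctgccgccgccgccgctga
Defa22: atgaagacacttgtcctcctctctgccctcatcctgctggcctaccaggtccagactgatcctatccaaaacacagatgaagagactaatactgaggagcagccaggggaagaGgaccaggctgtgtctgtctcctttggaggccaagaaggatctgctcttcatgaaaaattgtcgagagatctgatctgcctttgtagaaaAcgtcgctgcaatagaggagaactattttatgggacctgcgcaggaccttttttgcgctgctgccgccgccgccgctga
Defa17: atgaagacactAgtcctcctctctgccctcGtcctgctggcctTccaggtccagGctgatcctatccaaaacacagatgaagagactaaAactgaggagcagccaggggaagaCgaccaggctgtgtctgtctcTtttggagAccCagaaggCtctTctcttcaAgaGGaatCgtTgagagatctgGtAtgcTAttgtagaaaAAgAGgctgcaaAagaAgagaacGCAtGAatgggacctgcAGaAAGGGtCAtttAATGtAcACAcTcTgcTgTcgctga
Defa24: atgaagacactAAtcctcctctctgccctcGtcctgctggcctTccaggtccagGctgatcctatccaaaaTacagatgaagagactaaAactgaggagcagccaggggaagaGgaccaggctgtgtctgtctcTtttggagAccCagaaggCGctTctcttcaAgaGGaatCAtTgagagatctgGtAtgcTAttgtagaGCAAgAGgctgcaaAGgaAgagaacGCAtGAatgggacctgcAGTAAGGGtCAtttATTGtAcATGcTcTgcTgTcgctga
Defa22 differed from Defa21 at 2 bases (99.3% identity), T114G and T204A, with positions counted from the first base of the start codon and the Defa21 base first. Defa17 differed from Defa21 at 52 bases (81.6% identity). Defa24, the gene with no row, differed from Defa21 at 60 bases and from Defa17 at 12 bases (95.7% identity).

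Long exact stretches were shared with further genes of the family. Of the 100-base windows of the Defa21 transcript, 40.4% also occurred in Defa22, and of those of the Defa17 transcript, 90.6% occurred in Gm15284 or Defa3. Of the 50-base windows of Defa17, 92.0% occurred in at least 1 of 11 other genes. For Lyz1 the share of 50-base windows found elsewhere was 16.0%, all in its paralog Lyz2, for Ang4 it was 4.5%, for Itln1 1.0% and for Mmp7 0%. The sources used here do not say how reads of near-identical genes were divided, so the levels of Defa21, Defa22 and Defa17 are uncertain as those of single genes. Defa21 and Defa22 had almost the same values in every library: the Defa22 level divided by the Defa21 level lay at 0.775 to 1.19 in duodenal, 0.956 to 1.12 in ileal and 0.900 to 1.2 in colonic libraries.

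The 250 bases before the gene start were searched on both strands for 3 motifs, because Wnt signalling acts on Paneth cell genes through TCF/LEF factors and the vitamin D receptor binds repeats of a hexamer. The motifs were ATCAAAG, a core of TCF/LEF sites, the hexamer AGGTCA, and the DR3 element of the vitamin D receptor, which can contain that hexamer. RefSeq start windows (GRCm38.p6 assembly) were at hand for 6 of the 9 genes. The windows of Defa21 (chromosome 8, 21025295 to 21025544, plus strand) and Defa22 (21162027 to 21162276) were identical, with 0 differing bases, and held ATCAAAG 2 times. The window of Lyz1 (chromosome 10, 117292869 to 117293118, minus strand) held AGGTCA once and ATCAAAG 0 times. Both windows are shown with the matches in capitals.
Defa21 start window: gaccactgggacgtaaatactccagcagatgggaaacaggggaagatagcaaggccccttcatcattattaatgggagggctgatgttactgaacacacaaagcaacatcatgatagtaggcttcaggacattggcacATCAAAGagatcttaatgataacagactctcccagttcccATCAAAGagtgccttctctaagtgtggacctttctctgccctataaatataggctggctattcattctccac
Lyz1 start window: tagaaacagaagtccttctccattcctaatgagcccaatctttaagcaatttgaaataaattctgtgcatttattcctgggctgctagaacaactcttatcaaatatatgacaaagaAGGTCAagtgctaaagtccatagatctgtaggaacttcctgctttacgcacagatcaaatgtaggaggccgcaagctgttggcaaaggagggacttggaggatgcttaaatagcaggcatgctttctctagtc
Among all 32851 RefSeq windows, 3.21% held ATCAAAG at least once, 0.082% held it at least 2 times, 14.02% held AGGTCA and 0.04% held a DR3 element. None of the windows of the 6 genes held a DR3 element. Mmp7 has a pair of annotated starts, of which the downstream window held ATCAAAG once, and the windows of Ang4 and Itln1 held none of the 3 motifs.

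All 7 tested genes had their highest level in the ileum. Each of them was higher in all 7 ileal libraries than in all 8 duodenal and all 8 colonic ones. Levels below are FPKM (fragments scaled to gene length and library size, so that genes can be compared), given as mean ± SD over the libraries of a region with both groups together. The tables of the regions were normalized separately, so levels are set side by side between regions without a test. These are bulk samples, in which more cells of a type and more RNA per cell cannot be told apart.

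The α-defensins were the most abundant of the 7 in the ileum and differed in how they were spread along the gut. Defa21 stood at 17771 ± 7568 FPKM in the ileum (n = 7), against 165.9 ± 144.7 in the duodenum and 73.4 ± 84.3 in the colon (n = 8 each). Defa22 stood at 17862 ± 7292 FPKM in the ileum, against 164.2 ± 148.1 in the duodenum and 72.1 ± 78.2 in the colon. The ileal mean of the pair was thus 107.1 and 108.8 times the duodenal one. Defa17 stood at 15239.6 ± 3944 FPKM in the ileum, against 3209 ± 1941 in the duodenum and 60.3 ± 64.1 in the colon, an ileal mean 4.75 times the duodenal one. In the ileum the ranges of Defa21 and Defa17 overlapped, while in every duodenal library Defa17 was far above Defa21.

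The granule enzymes and the lectin fell between these patterns. Lyz1, the Paneth cell lysozyme gene (chromosome 10, 116724852 to 116729924 on NCBIM37), stood at 7765 ± 1779.5 FPKM in the ileum, 1073 ± 521.8 in the duodenum and 54.6 ± 36.9 in the colon. Itln1, which encodes a lectin for microbial sugars (chromosome 1, 173448253 to 173465425), stood at 3005 ± 673.3 FPKM in the ileum, 470.97 ± 303.2 in the duodenum and 16.7 ± 11.7 in the colon. Mmp7, the defensin-processing protease gene (chromosome 9, 7692086 to 7699585), stood at 357.9 ± 233.8 FPKM in the ileum, 43.1 ± 29.3 in the duodenum and 9.01 ± 10.1 in the colon. The ileal means were 7.24, 6.38 and 8.30 times the duodenal means for Lyz1, Itln1 and Mmp7. In the ileum the ranges of Defa17, Lyz1, Itln1, Ang4 and Mmp7 did not overlap, in that order from high to low.

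Ang4, a ribonuclease gene of Paneth cells that mouse goblet cells also express (chromosome 14, 52383553 to 52393265), was the one gene of the 7 with a higher mean in the colon than in the duodenum. It stood at 1112 ± 283.2 FPKM in the ileum, 109.5 ± 68.4 in the duodenum and 323.3 ± 282.3 in the colon, where it was the highest of the 7 genes on average. Colonic values ran over 12.4 to 759.1 FPKM and overlapped the duodenal range of 47.02 to 268.7 FPKM. The goblet cell gene Muc2 stood at 631.98 to 878.6 FPKM in the colon and at 31.8 to 53.1 FPKM in the duodenum. In the ileum, where Ang4 was highest, Muc2 stood at 130.8 to 223.5 FPKM. The 12 listed goblet cell genes summed to 16705 to 21990 FPKM in the colon and 5443 to 9396 FPKM in the duodenum. Their ileal sums were 13239 to 17868 FPKM. The part of goblet cells in the Ang4 level was not tested.

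**Figure D1:**
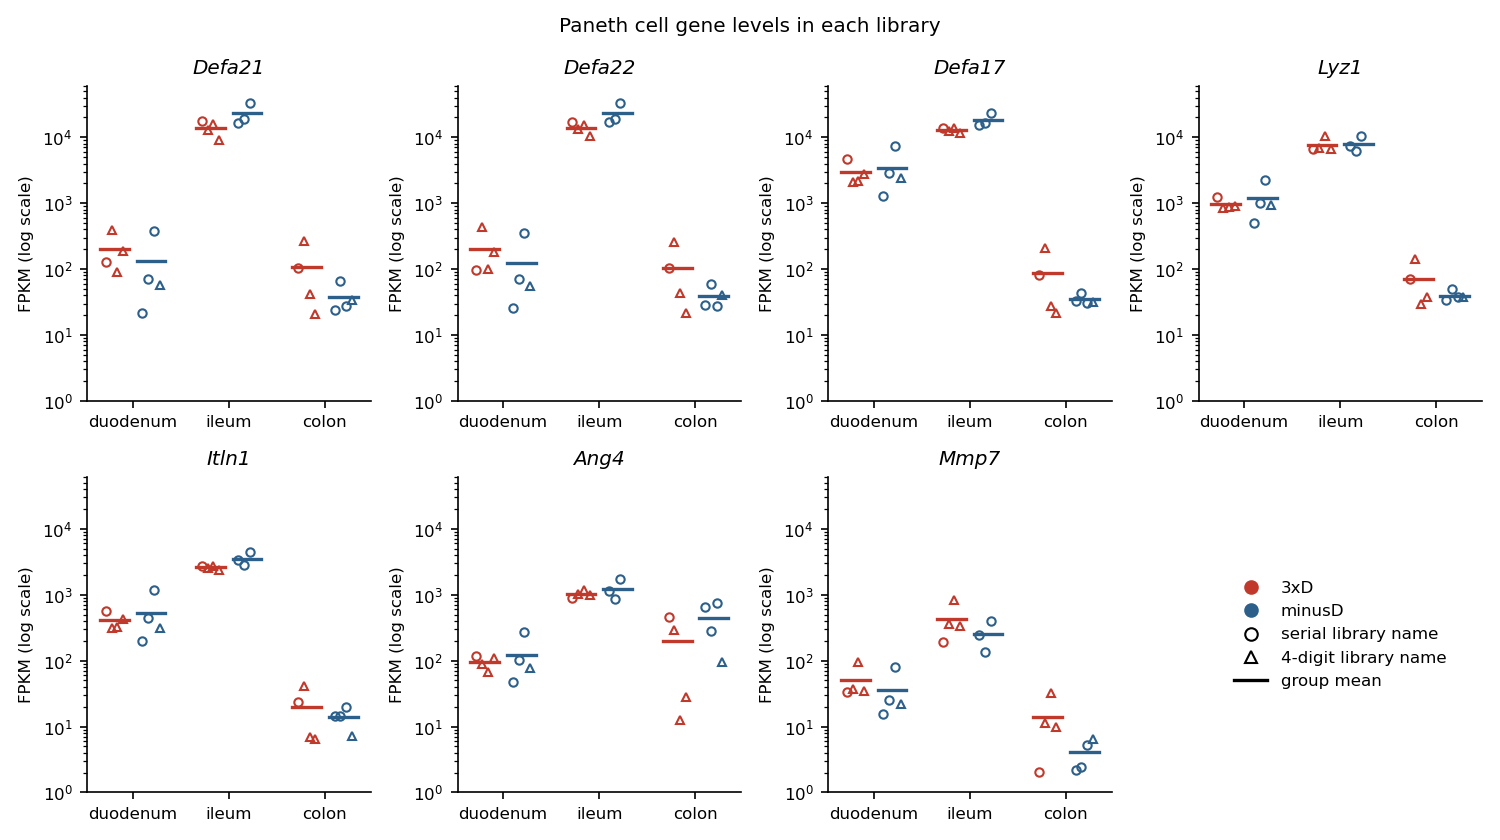
Level of each tested gene in each library (FPKM, log axis) by region, with 3xD left of minusD, circles for serial and triangles for 4-digit library names, and bars at group means. The ileal libraries lie above all others for every gene, and Defa17 keeps a high level in the duodenum (1271 to 7328 FPKM) where Defa21 lies at 21.6 to 398.4 FPKM.

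Pla2g2a (chromosome 4, 138387772 to 138391101), which encodes a secreted phospholipase and is disrupted by a natural mutation in C57BL/6 mice, was at the edge of detection. RefSeq lists it as a transcribed pseudogene. Its highest value was 2.01 FPKM, from 18 reads, in ileal 3xD5720. It was listed at 0 in 7 of 8 duodenal, 3 of 7 ileal and 4 of 8 colonic libraries.

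The mix of α-defensins differed between regions. The RefSeq names identified 21 rows of the tables as α-defensin genes, and the ileal mean was above the duodenal mean in 19 of the 19 rows with a ratio. Defa17 made up 11.2 to 16.3% of the summed α-defensin FPKM in ileal libraries and 30.1 to 41.9% in duodenal ones. Defa21 and Defa22 together made up 25.7 to 37.1% of it in ileal libraries and 1.56 to 11.9% in duodenal ones. The ratio of Defa21 to Defa17 had a median of 1.13 in the ileum (0.805 to 1.43) and of 0.0341 in the duodenum (0.0170 to 0.190), with 1.17 in the colon (0.746 to 1.51). The colonic range thus overlapped the ileal one, and neither overlapped the duodenal one. Other family members spread over a wider span of region ratios, from 3.17 to 158.6 times. Gm15284 (Defa30 in RefSeq) was 4.81 times as high in the ileum as in the duodenum, and Gm14851 (Defa38) 4.43 times. Gm15308 (Defa32) and Defa20 were 158.6 and 124.4 times as high. Gm15284, Gm14851, Gm15308 and Defa20 all share 50-base windows with Defa17.

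**Figure D2:**
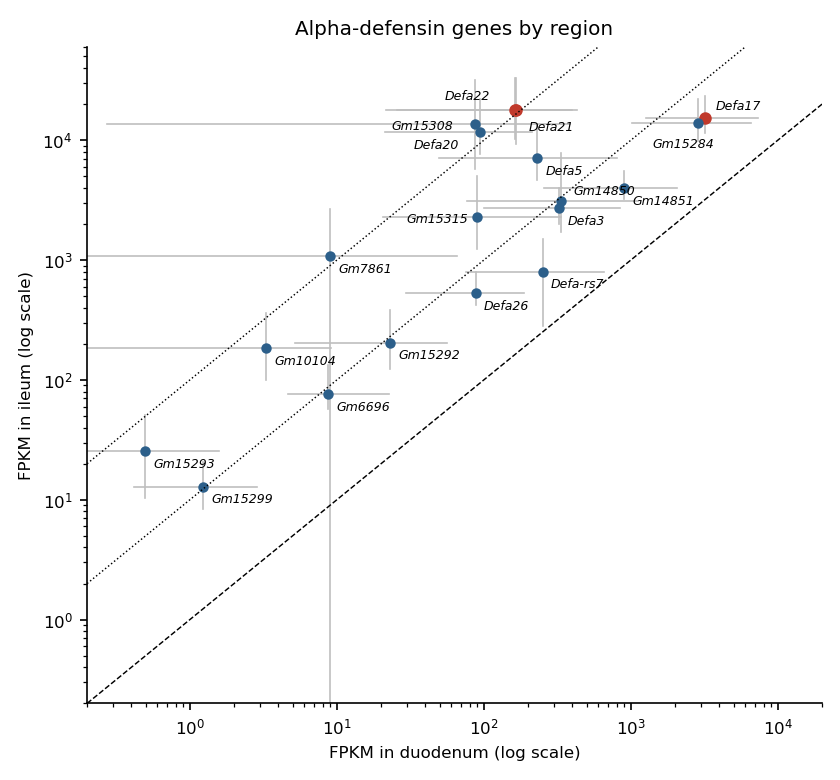
Mean level of 19 α-defensin rows in the ileum (vertical, FPKM, log axis) against the duodenum (horizontal, FPKM, log axis), with grey lines from the lowest to the highest library, cut off at the axes where the lowest is 0, and Defa21, Defa22 and Defa17 in red. The dashed line marks equal levels and the dotted lines mark 10 and 100 times higher levels in the ileum: Defa17 lies near 4.75 times and Defa21 and Defa22 lie near 107.1 and 108.8 times.

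To compare regions without the tables' scaling, each gene was set against Lyz1 of the same library as a log2 ratio of FPKM + 1, and the ileum was compared with the duodenum by an exact permutation test (two-sided, libraries exchanged between regions within 3xD and within minusD, 2450 regroupings, 0.0004082 the smallest p that these can give). Benjamini-Hochberg adjustment ran over the 6 ratios. Relative to Lyz1, Defa21 was higher in the ileum than in the duodenum by 4.22 in log2 (1.13 ± 0.47 against -3.10 ± 1.09, SD, n = 7 and 8, adjusted exact permutation p = 0.001224). Defa22 was higher by 4.25 (adjusted exact permutation p = 0.001224) and Ang4 by 0.53 (-2.81 ± 0.18 in the ileum and -3.34 ± 0.23 in the duodenum, adjusted exact permutation p = 0.002449). Defa17 was lower by 0.54 relative to Lyz1, at 0.97 ± 0.32 in the ileum and 1.51 ± 0.24 in the duodenum (adjusted exact permutation p = 0.002449).

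Ratios of 4 of 6 genes to Lyz1 therefore passed the threshold. Those of Mmp7, with a difference of 0.10 (-4.63 ± 0.63 in the ileum and -4.73 ± 0.70 in the duodenum, adjusted exact permutation p = 0.7322), and of Itln1, with -0.10 (-1.37 ± 0.27 and -1.26 ± 0.23, adjusted exact permutation p = 0.5182), did not. The p-values above treat libraries of the same number as independent. With these libraries paired, the 4 genes kept their direction in 7 of 7 pairs. Each then had an exact sign-flip p of 0.01562 (adjusted exact sign-flip p = 0.02344). The Defa17 difference was -0.76 in 3xD libraries alone and -0.26 in minusD libraries alone, and for Defa21 these were 3.32 and 5.22. Within 1 group none of the ratios passed after adjustment, where the smallest exact permutation p that the number of libraries allows is 0.02857.

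**Figure D3:**
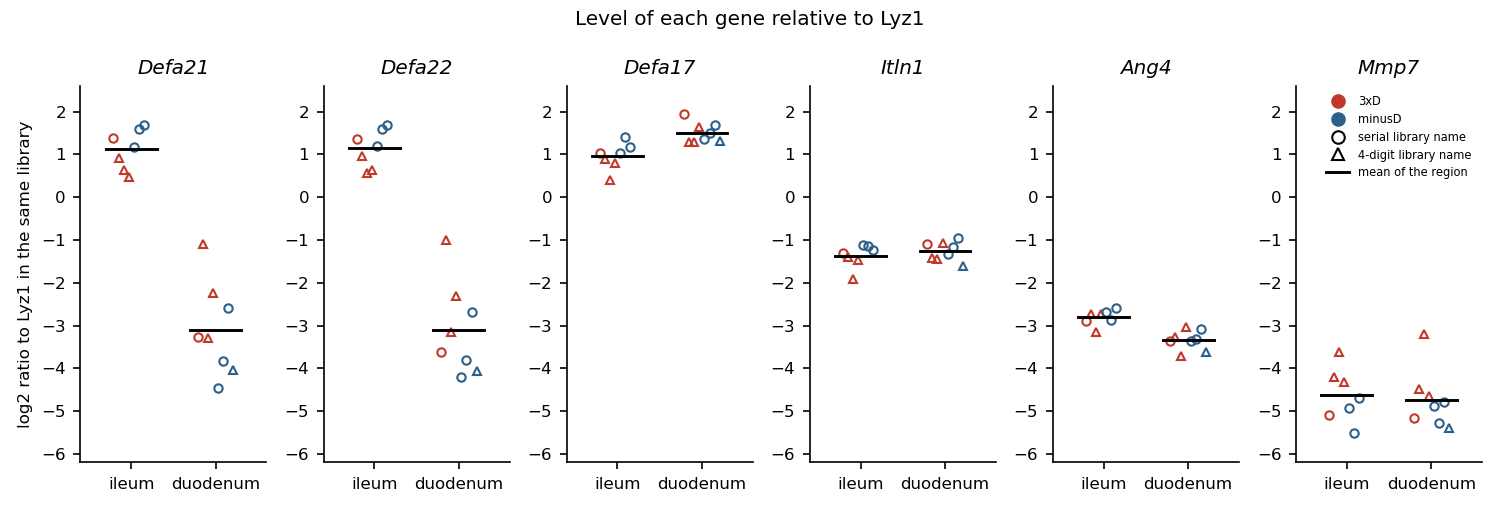
Log2 ratio of each gene to Lyz1 in the same library (vertical axis), in ileum and duodenum, with 3xD libraries left of minusD libraries within a region and bars at the mean of the region. Defa21 and Defa22 lie above 0 in all ileal libraries and at or below -0.99 in all duodenal ones, while the ranges of the other 4 genes overlap between regions.

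Among duodenal libraries the ratio of Defa21 to Defa17 was highest in the 2 libraries with most Fabp6. It was 0.190 in 3xD5711, the library with the highest Fabp6 of the duodenum (280.9 FPKM), and 0.0675 in 3xD5734, with the second highest (89.4 FPKM). In the other 6 duodenal libraries the ratio was 0.0170 to 0.0509 and Fabp6 was 0.926 to 22.7 FPKM. The highest of these 6 ratios was that of Vehicle 3, where Fabp6 was 3.55 FPKM. The part of ileal RNA in the levels of Defa21 and Defa22 was not tested.

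Calcitriol changed none of the 7 genes past the threshold in any region. The test was limma on log2(FPKM + 1) over all expressed genes of a region, two-sided, with Benjamini-Hochberg adjustment at 0.05, and log2 differences are 3xD minus minusD. In the duodenum 0 of 7 were called, where 0.0256% of 11734 genes were. In the ileum 0 of 7 were called, where 0% of 12149 genes were, and in the colon 0 of 7, where 0% of 12746 genes were. Of 5 listed calcitriol target genes, Cyp24a1 among them, 1 of 5 tested was called higher in the duodenum. In the ileum 0 of 4 tested were called (smallest limma adjusted p = 0.7064), and in the colon 0 of 5 (smallest limma adjusted p = 0.1086). The test thus called no listed target in ileum or colon, which limits what 0 of 7 there can mean. At an unadjusted p under 0.05, limma also found 0 of the 7 in each region, where 4.03% of genes were higher and 5.37% lower at that level in the duodenum. The same shares were 3.09% and 2.74% of ileal genes, and 2.92% and 2.93% of colonic ones. A voom fit of the recovered reads called 0 of 7 in each region too, with 4 of 7 at an unadjusted p under 0.05 in the ileum and 0 in the others. In limma with single libraries left out, 3 of 7 reached that level in the duodenum without Vehicle 3. In the colon 2 of 7 did without 3xD 1 or without 3xD5734, and 1 of 7 without 3xD5720. After quantile normalization 1 of 7 did in the ileum. The shares of all genes at that level were not taken for these fits or for voom, so these counts lack a background. The 95% intervals given below are the ranges of differences compatible with the values of these few libraries.

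In the duodenum the near-identical pair had the largest differences. The groups overlapped for all 7 genes there, where 1.99% of genes had every 3xD library higher and 2.38% every 3xD library lower, and 4 of 7 had a difference below 0, where 48.1% of all genes did. Defa21 had 127.1, 398.4, 89.8 and 190.3 FPKM in the 3xD libraries 3xD 1, 3xD5711, 3xD5720 and 3xD5734, against 21.6, 70.5, 372.7 and 57.2 FPKM in the minusD libraries Vehicle 1, 2 and 3 and minusD5718. All 3xD libraries lay above 3 of the 4 minusD libraries, and Vehicle 3 lay above 3 of the 4 3xD ones. The log2 difference was 1.17 ± 0.79 (SE, 95% interval -0.62 to 2.95, limma adjusted p = 0.6096), with 0.60 within serial and 1.71 within 4-digit libraries. In every region 3xD 1 is the only serial 3xD library, and minusD5718 is the only 4-digit minusD library of duodenum and colon. Differences within a scheme thus rest on a single library of 1 group. For Defa22 it was 1.09 ± 0.76 (limma adjusted p = 0.6176). Without Vehicle 3 the differences were 1.92 and 1.80 (limma adjusted p = 0.1587 and 0.1662), and with each library left out in turn the lowest were 0.58 and 0.57. Fabp6 differed between the same groups of the duodenum, at 10.05 to 280.9 FPKM in 3xD and 0.926 to 17.5 FPKM in minusD libraries. Its log2 difference was 3.02 ± 1.02 (SE, limma adjusted p = 0.4987). Vehicle 3, the highest minusD library for Defa21, had 3.55 FPKM of Fabp6. The 8 of 10 listed ileum markers with a row summed to 1136 to 1563 FPKM in 3xD and 1052 to 1236 in minusD libraries. Fabp6 was a minor part of these sums, and Cyp8b1 lay at 0 to 0.0714 FPKM. Slc10a2, another of these markers, lay at 2.23 to 9.15 FPKM in 3xD and 1.69 to 3.23 FPKM in minusD libraries. The part of ileal RNA in the result was not tested.

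Defa17 differed little between the groups of the duodenum. It had 4744, 2093, 2171 and 2821 FPKM in 3xD libraries, against 1271, 2871, 7328 and 2371 FPKM in minusD libraries, in the order above. The minusD group held both the lowest and the highest value. The log2 difference was -0.01 ± 0.51 (SE, 95% interval -1.16 to 1.13, limma adjusted p = 0.993).

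Lyz1, Itln1 and Ang4 of the duodenum also had both their lowest and their highest value in the minusD group. Lyz1 had 1224, 855.98, 884.3 and 899.8 FPKM in 3xD libraries, against 496.2, 1008, 2264 and 952.1 FPKM in minusD libraries. Its log2 difference was -0.09 ± 0.40 (SE, 95% interval -0.99 to 0.81), that of Itln1 was -0.09 ± 0.48 (-1.18 to 1.01) and that of Ang4 -0.10 ± 0.46 (-1.14 to 0.94). Mmp7 had 33.2, 37.2, 95.9 and 35.1 FPKM in 3xD libraries, against 15.7, 24.9, 81.4 and 21.7 FPKM in minusD libraries. Its difference was 0.62 ± 0.51 (SE, 95% interval -0.53 to 1.78, limma adjusted p = 0.6615). Leaving out 3xD5720, the highest for Mmp7, gave 0.27, and leaving out Vehicle 3 gave 1.11.

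In the ileum 6 of the 7 genes had a lower level in 3xD mice, where 48.3% of all genes tested did. The median log2 difference was -0.41 over the 7 genes and 0.01 over all genes. Defa17 had 13747, 12605, 13716.5 and 11449 FPKM in 3xD 1, 3xD5711, 3xD5720 and 3xD5734, against 15120.0, 16719.8 and 23319.7 FPKM in Vehicle 1, 2 and 3. Every 3xD library lay below every minusD library. The log2 difference was -0.49 ± 0.26 (SE, 95% interval -1.10 to 0.11, limma adjusted p = 0.7064).

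Itln1 showed the same separation. It had 2727, 2569.7, 2742 and 2405 FPKM in 3xD libraries, against 3372, 2848 and 4371 FPKM in minusD libraries. Its log2 difference was -0.41 ± 0.21 (SE, 95% interval -0.89 to 0.06, limma adjusted p = 0.7064). Defa17 and Itln1 were 2 of 7 genes whose groups did not overlap with 3xD lower, where 3.21% of all ileal genes tested did so and 3.35% did so with 3xD higher. The minusD libraries of the ileum all carry serial names, so only 3xD 1 shares their naming scheme and range of depth. Against them, 3xD 1 alone differed by -0.39 for Defa17 and -0.35 for Itln1, and without Vehicle 3 the differences of the groups were -0.31 and -0.25.

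The near-identical pair was also lower on average in 3xD ilea, with overlap. Defa21 had 17391, 12801, 16119.5 and 9217 FPKM in 3xD libraries, against 16639, 18959.8 and 33270.5 FPKM in minusD libraries. 3xD 1 lay above Vehicle 1, and the remaining 3xD libraries lay below every minusD library. The log2 difference was -0.70 ± 0.36 (SE, 95% interval -1.53 to 0.13, limma adjusted p = 0.7064), and -0.40 without Vehicle 3. For Defa22 it was -0.67 ± 0.34 (limma adjusted p = 0.7064). The summed reads of the genes made up 1.98 to 2.68% of recovered reads in 3xD and 2.73 to 4.00% in minusD libraries.

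Lyz1, Ang4 and Mmp7 had overlapping groups in the ileum. Lyz1 had 6684, 6774, 10349 and 6606 FPKM in 3xD libraries, against 7338, 6292 and 10310 FPKM in minusD libraries, a log2 difference of -0.07 ± 0.28 (SE, 95% interval -0.72 to 0.58). Ang4 differed by -0.22 ± 0.24 (-0.78 to 0.34). Mmp7 had 193.97, 365.5, 843.5 and 329.2 FPKM in 3xD libraries, against 240.6, 136.1 and 396.1 FPKM in minusD libraries, a log2 difference of 0.67 ± 0.51 (SE, 95% interval -0.51 to 1.85, limma adjusted p = 0.7157). The highest value was that of 3xD5720, the library with the lowest Fabp6, and without it the difference was 0.28. Within serial libraries the sign of the Mmp7 difference was the opposite (-0.28).

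**Figure D4:**
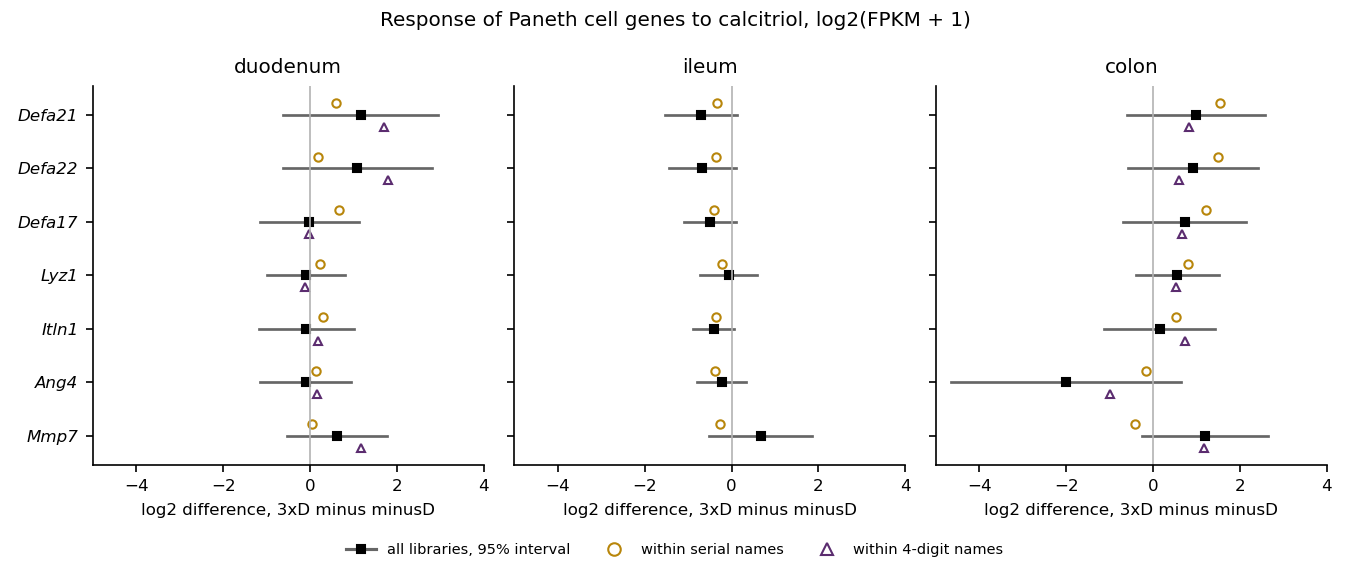
Log2 difference of 3xD minus minusD on log2(FPKM + 1) for each gene (rows) in each region, with black squares and 95% intervals for all libraries, circles for the difference within serial names and triangles for that within 4-digit names, which the ileum lacks. Each circle rests on 3xD 1 as its only 3xD library, and each triangle on minusD5718 as its only minusD library. Every interval holds 0, and the widest is that of Ang4 in the colon (-4.65 to 0.65).

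In the colon the spread was carried by few libraries. Of the 7 genes, 1 had a difference below 0, where 52.7% of all genes did, and 0 had groups that did not overlap, where 2.22% of genes did with 3xD higher and 2.32% with 3xD lower. Defa21 had 104.4, 270.3, 41.3 and 20.6 FPKM in 3xD libraries, against 24.1, 65.03, 27.5 and 34.2 FPKM in minusD libraries, from 86 to 967 reads. 3xD5711 and 3xD 1 were high and the rest overlapped. The log2 difference was 0.99 ± 0.70 (SE, 95% interval -0.60 to 2.58, limma adjusted p = 0.8896) and 0.35 without 3xD5711. Defa17 had 82.8, 211.8, 27.4 and 21.9 FPKM in 3xD libraries, against 32.3, 44.2, 30.5 and 31.4 FPKM in minusD libraries. The same pair of libraries was high for it, and its difference was 0.73 ± 0.62 (SE, limma adjusted p = 0.9091), or 0.11 without 3xD5711. These 3xD libraries also had the highest Fabp6 of the colon, at 265.8 FPKM in 3xD5711 and 124.3 FPKM in 3xD 1, against 28.4 to 86.6 FPKM in the other 6 colonic libraries. The sum of the 8 ileum markers with a row did not follow that order, at 3786 FPKM in 3xD5711. It lay at 3786 to 5236 FPKM in 3xD and 3912 to 6226 FPKM in minusD colons, and Fabp6 was a minor part of it. Slc10a2 did not follow that order either, at 81.3 FPKM in 3xD5711 and 18.1 FPKM in 3xD 1. Its ranges were 18.1 to 86.1 FPKM in 3xD and 33.6 to 87.3 FPKM in minusD colons. The part of ileal RNA in the result was not tested.

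Lyz1 in the colon had 70.7, 140.4, 29.9 and 38.2 FPKM in 3xD libraries, against 33.4, 49.4, 38.1 and 37.2 FPKM in minusD libraries, a log2 difference of 0.56 ± 0.42 (SE, 95% interval -0.39 to 1.51), or 0.14 without 3xD5711. Relative to Lyz2, the lysozyme gene of macrophages, Lyz1 stood at 0.246 to 1.29 times its level in 3xD colons and 0.222 to 0.337 times in minusD colons, while in the ileum it stood at 41.3 to 128.3 times in 3xD and 42.1 to 104.1 times in minusD. Itln1 differed by 0.15 ± 0.56 in the colon (SE, 95% interval -1.12 to 1.43).

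Ang4 and Mmp7 had the largest differences of the colon, in opposite directions. Ang4 had 464.3, 293.1, 12.4 and 27.6 FPKM in 3xD libraries, against 653.8, 280.6, 759.1 and 95.3 FPKM in minusD libraries. The serial libraries of both groups were high (280.6 to 759.1 FPKM) and, but for 3xD5711, the 4-digit libraries were low. The log2 difference was -2.0 ± 1.17 (SE, 95% interval -4.65 to 0.65, limma adjusted p = 0.8852), with -0.16 within serial and -0.99 within 4-digit libraries, and -0.58 when the fit held the naming scheme. Mmp7 had 2.05, 11.4, 32.5 and 9.94 FPKM in 3xD libraries, against 2.20, 2.41, 5.17 and 6.35 FPKM in minusD libraries. Here the serial libraries were low in both groups (2.05 to 5.17 FPKM) and the 4-digit ones higher. The difference was 1.20 ± 0.64 (SE, 95% interval -0.24 to 2.65, limma adjusted p = 0.8632), with -0.41 within serial and 1.17 within 4-digit libraries, and 0.38 when the fit held that scheme. The parts of treatment and of naming scheme, which coincides with depth, in these differences cannot be told apart beyond the values within a scheme. Those values rest on a single library of 1 group. Colonic 3xD5720, with the lowest Ang4 and the highest Mmp7, also stood apart in its exocrine pancreas genes. The 13 listed ones summed to 34528 FPKM in it, against 165.2 to 6195 FPKM in the other colonic libraries. The part of this in the differences was not tested.

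Responses were then compared between regions as interaction contrasts in one limma fit over the 23 libraries. None of the 7 genes was called for any pair of regions, where 0% of 13390 genes were (0 of 7 at an unadjusted p under 0.05). The response of Defa21 in the ileum minus that in the duodenum was -1.86 ± 1.07 in log2 (SE, limma adjusted p = 0.8646, or 0.5957 with the library number as a block), and that of Defa22 was -1.76 ± 1.02. The other 5 genes lay between -0.48 (Defa17) and 0.05 (Mmp7). The colon minus the duodenum gave -1.90 ± 1.20 for Ang4 (limma adjusted p = 0.9998), and the ileum minus the colon gave 1.78 ± 1.25 for Ang4 (limma adjusted p = 0.9706).

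Single libraries were high or low for most of the 7 genes at once. Vehicle 3 lay above the mean of its group for 7 of 7 genes in the duodenum and for 7 of 7 in the ileum, with median deviations of 1.46 and 0.52 in log2. Vehicle 1 lay below it for 7 of 7 genes in the duodenum (median -1.10) and for 6 of 7 in the ileum. In the colon 3xD5711 lay above its group for 7 of 7 genes (median 1.79). In the ileum 3xD5720 lay above its group for 7 of 7 genes (median 0.19), and 3xD5734 and Vehicle 2 lay below theirs for 7 of 7 (-0.18 and -0.29). Duodenal minusD5718 also lay below its group for 7 of 7 (median -0.40). Mmp7 was highest in 3xD5720 in all 3 regions, at 95.9, 843.5 and 32.5 FPKM in the duodenum, ileum and colon. Ileal Lyz1 was highest there too, at 10349 FPKM. In duodenum and colon Mmp7 departed from the others, since 3xD5720 lay below its group for the other 6 genes.

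**Figure D5:**
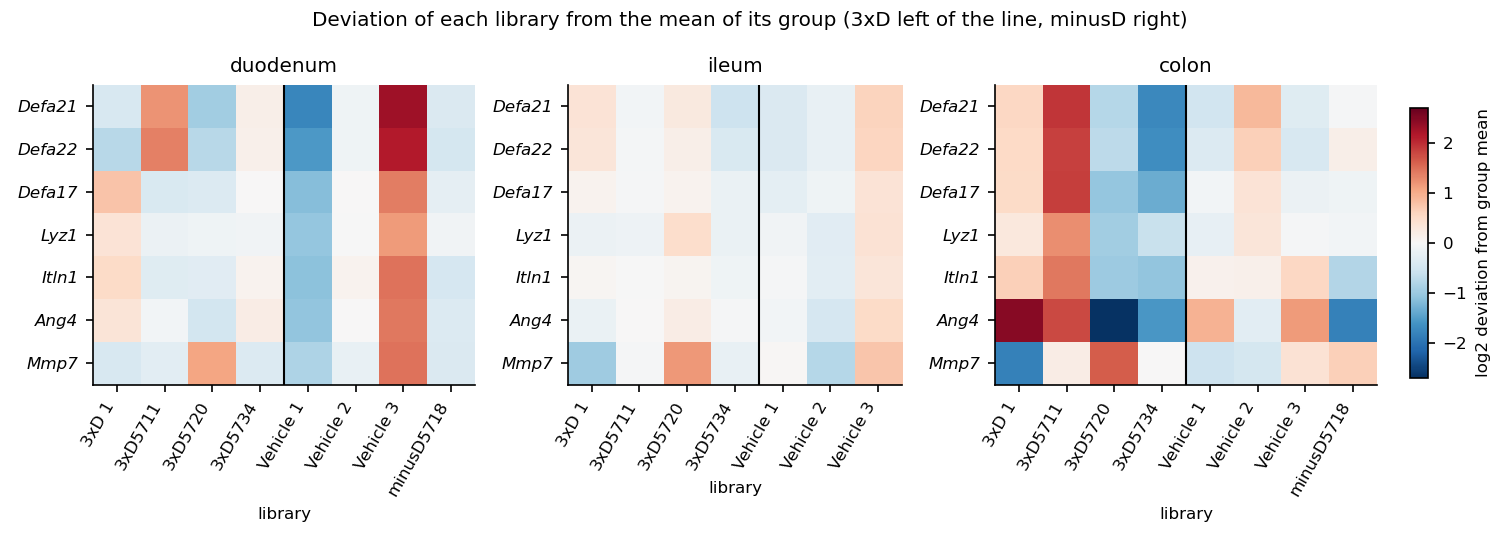
Deviation of each library from the mean of its group in log2(FPKM + 1), with genes in rows and libraries in columns, 3xD left of the black line and minusD right of it, red above and blue below the mean. Vehicle 3 is red for all 7 genes in duodenum and ileum (median 1.46 and 0.52) and 3xD5711 for all 7 in the colon (median 1.79), while Mmp7 and, in the colon, Ang4 run apart from the defensins.

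The genes most alike in these deviations were mostly other defensins. Likeness was Pearson's r between a gene's deviations and the mean scaled deviation of the 7 genes over the 15 duodenal and ileal libraries, for 11426 other genes, as a description without a test, since the points share libraries and depth. Of the 10 most alike genes, 9 are given here, with r of 0.922 to 0.985. They were Insc, Defa5, Defa26, AY761184, Prdx4, Gm14851, Gm15315, Defa3 and Gm15284, of which all but Insc and Prdx4 had been listed as Paneth granule genes. Of these, Defa5, Defa26, Gm14851, Gm15315, Defa3 and Gm15284 share 50-base windows with Defa17 or Defa22, and the part of shared reads in the likeness was not tested.

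Other genes, taken from 3 lists drawn up for the Paneth cell programme, were not called in any region either. These lists also hold genes of other cell types, such as Lyz2 and the exocrine pancreas genes Clps and Prss2. Of 59 further granule and secreted genes, 29 were tested for the duodenum, 33 for the ileum and 26 for the colon, and 0 were higher and 0 lower in each. Their median log2 difference was 0.22 (duodenum), -0.18 (ileum) and 0.60 (colon), against 0.01, 0.01 and -0.01 over all genes tested. The most abundant of them in the ileum were Gm15284 (-0.43 ± 0.29, SE), Gm15308 (-0.14 ± 0.54), Defa20 (-0.16 ± 0.39), Defa5 (-0.27 ± 0.37) and Gm14851 (-0.01 ± 0.27). In the colon 4 of the 26 had an unadjusted limma p under 0.05 with 3xD higher, where 2.92% of all genes did. In the ileum 2 of the 33 did with 3xD lower, where 2.74% did. Many listed genes are defensins with shared stretches of sequence, so these counts are not of independent genes. Colonic 3xD5711 was far the highest for Gm15284 (199.0 against 20.1 to 76.0 FPKM) and Defa5 (130.2 against 8.02 to 36.7 FPKM). The list was not fitted without that library.

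Regulators of Paneth and secretory cells had 23, 23 and 25 tested genes in the duodenum, ileum and colon, of which 0 were called. The most abundant in the ileum were Ctnnb1 (β-catenin), Xbp1 (a factor of the unfolded protein response), Fzd5 (a Wnt receptor of Paneth cells), Atg5 (autophagy) and Myd88 (an adaptor of microbial sensing). Their ileal differences were -0.04 ± 0.16, 0.37 ± 0.23, 0.02 ± 0.13, -0.03 ± 0.11 and 0.02 ± 0.14 in log2 (SE). Of genes for processing and folding of secreted proteins, 17, 16 and 18 were tested and 0 were called. Agr2, a disulfide isomerase of secretory cells, differed by 0.44 ± 0.30 in the ileum (SE), the chaperone gene Hspa5 by 0.10 ± 0.23, Pdia6 by 0.09 ± 0.25, Sec61a1 by 0.08 ± 0.21 and Pdia4 by 0.04 ± 0.18.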

How the data were processed

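A NEBNext Ultra II kit was used for the libraries and CLC Genomics Workbench for mapping to the mouse genome, per the labels' protocols. That text breaks off there. The submitters' processing notes also name kallisto 0.45.0, DESeq 1.14.0, DESeq2 and mm9, with no role. The authors deposited FPKM values per gene symbol, one column per library. The ileal table of 8 libraries equals the duodenal one in 171528 of 171528 values, so its 8 columns were not used and the ileum rests on the table of 7. This departs from the planned 4 against 4. Columns named Vehicle were taken as minusD, since the tables compare minusD with 3xD and hold no other group.

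Low FPKM values are multiples of the worth of 1 read. Reads were recovered within 0.001 of a whole number for 79.7%, 79.9% and 79.9% of tested genes of the duodenum, ileum and colon, and for all 8 genes described. They gave the depth, which leaves out the other genes. The filter kept genes that reached 1 FPKM in 3 or more libraries. Values were tested as log2(FPKM + 1), which understates changes of low genes, by limma 3.58.1 (R 4.3.3) with a trended eBayes prior and no covariate. Python 3.11.15 was used for permutation tests, and the scripts were tested on simulated data. Sequences come from gencode vM1 (NCBIM37, the assembly of mm9) and RefSeq (GRCm38.p6). Libraries of the same number in different regions were checked for pairing: the correlation of their deviations from group means was over 0.1 in 7 of 7 pairs of ileum and duodenum (lowest 0.129, median 0.242), 7 of 8 of colon and duodenum and 6 of 7 of ileum and colon. The main interaction fit had no block. In an alternative to it, the library number was therefore a block over the libraries of all 3 regions (consensus correlation 0.294).

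Alternatives covered the pseudocount (0.1, 0.5), the filter (none, a mean of 1 FPKM, 5 FPKM), quantile and median-ratio scaling, robust eBayes, naming scheme and epithelial content as covariates, voom on recovered reads, the authors' tables of 7 libraries and each library left out. The genes and lists were chosen with earlier results of these data known. Named beside the 9 genes were those of the 3 Paneth cell lists past the threshold (none) or among the 5 most abundant of a list in the ileum, the 10 genes most alike (1 is not reported here), and marker genes set beside a result.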

Additional observations from a re-analysis of the deposited data

Results flagged for a closer look

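A sample far from the 3 others of its group was found in 8 of 39 sets, each of 1 gene in the 4 libraries of a group. Chance flags about 1 in 20 sets where values are independent and normally distributed. These sets of FPKM values share libraries and near-identical genes, so their count cannot be set against that rate. Each of the 8 had a gap to its neighbour of more than 0.829 of the range of the 4 values. In the minusD duodenum, Vehicle 3 stood at 372.7 FPKM of Defa21, against 21.6 to 70.5 FPKM in the others of its group, at 349.5 FPKM of Defa22 and at 81.4 FPKM of Mmp7. In the 3xD duodenum, 3xD5720 stood at 95.9 FPKM of Mmp7, and 3xD 1 at 1224 FPKM of Lyz1 and at 0.504 FPKM of Pla2g2a, which was listed at 0 in the others. In the 3xD ileum, 3xD5720 stood at 10349 FPKM of Lyz1. In the minusD colon, Vehicle 2 stood at 44.2 FPKM of Defa17, against 30.5 to 32.3 FPKM in the others.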

How the results depend on the processing

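The count of called genes among the 7 was 0 in every region and every contrast between regions under each alternative run, while the count over all genes ran over 0 to 4 for the duodenum (3 as reported), 0 to 1 for the ileum (0) and 0 to 3 for the colon (0). No paired analysis was possible because the columns carry no replicate number of the labels for 3xD against minusD. With the library number as a replicate block between regions, the interaction contrasts called 0 genes, and with libraries paired by number 4 ratios to Lyz1 passed, as without pairing. In 3xD libraries alone 0 ratios passed and in minusD libraries alone 0, with smallest adjusted exact permutation p-values of 0.05714 and 0.08571, and in minusD libraries alone the Itln1 ratio to Lyz1 differed by 0.10. With the mean of epithelial genes in place of Lyz1, the ileum minus duodenum differences of Defa17 and Itln1 turned to 1.82 and 2.26, and Lyz1 itself has an ileal mean 7.24 times the duodenal one.

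Some uncalled differences changed sign, among them that of ileal Mmp7, 0.67 as reported. With the naming scheme as a covariate they were 0.14 (Ang4), 0.32 (Defa17), 0.24 (Itln1) and 0.0587 (Lyz1) in the duodenum and -0.28 (Mmp7) in the ileum, and with the authors' colon table of 7 libraries -0.11 (Itln1). The cause was not tested. When single libraries were left out, the duodenal difference ran over -0.46 to 0.37 for Ang4, -0.40 to 0.44 for Defa17, -0.45 to 0.40 for Itln1 and -0.44 to 0.29 for Lyz1, the ileal one over -0.45 to 0.0384 for Ang4 and -0.22 to 0.13 for Lyz1, and the colonic one over -0.33 to 0.51 for Itln1. Vehicle 3 gave the upper end in the duodenum and ileum and 3xD5711 the lower end in the colon. Members called stayed at 0 to 0 and ratios past the threshold at 4 to 4, and the Mmp7 ratio to Lyz1 ran over -0.0663 to 0.32. Low read counts of the gene limit Mmp7 in the colon, with 49 to 423 reads, and Pla2g2a, with at most 18.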

Other observations

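Insc, which encodes an adaptor of spindle orientation and is not a granule gene, followed the deviations of the 7 genes most closely (r = 0.985 over 15 libraries of duodenum and ileum), at a level of 0.969 to 2.51 FPKM from 38 to 204 reads. It was highest in Vehicle 3 in both regions, at 2.51 FPKM in the duodenum and 1.76 FPKM in the ileum. Unlike the 7 genes it was not higher in the ileum, with a mean of 1.41 FPKM there and 1.43 FPKM in the duodenum. Over the 8 colon libraries, which had no part in choosing it, its r with the same 7 genes was 0.613, where 6.5% of 12739 genes had an r over 0.5. Prdx4, a peroxiredoxin gene of the endoplasmic reticulum (r = 0.935), had an r of 0.078 in the colon. For the 7 α-defensin and related genes named among the most alike, r in the colon was 0.718 to 0.959.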
